A study of Mus musculus with 27 samples.

Results

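The cell cycle genes described here are 42 mouse genes for DNA replication, cyclins and their kinases, cell cycle transcription factors, mitosis and CDK inhibition, followed through every retinal and brain library of a study of Brn3 retinal ganglion cells. They were chosen by symbol, the 180 transcripts listed under those symbols were summed per gene, and they are 42 of 30735 genes in the count table. A dividing cell passes from G1 through DNA synthesis (S) and G2 to mitosis (M). D-type cyclins with Cdk4 start the passage through G1 by inactivating the retinoblastoma protein, which frees E2F factors to switch on replication genes, and B-type cyclins with Cdk1 later drive mitosis. In the developing mouse retina, progenitors divide from embryonic life until after birth, whereas retinal ganglion cells (RGCs), which send the axons of the optic nerve, leave the cycle as they are born and stay out of it.

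RGCs depend on the POU-domain factors Brn3a, encoded by Pou4f1, and Brn3b, encoded by Pou4f2. In C57Bl/6 mice, a knock-in of alkaline phosphatase (AP) replaced 1 copy of either gene; KO mice carried a null second copy (AP/KO) and HET mice an intact second copy (AP/WT), so all retinal libraries come from mice that had lost at least 1 copy. Cells with AP on their surface were captured with antibody-coated magnetic beads and make up the AP-positive RGC libraries, and the cells left unbound make up the supernatant (SN) libraries. The brain libraries come from wild-type mice at the same postnatal age, from the superior colliculus (SC), the lateral geniculate nucleus (LGN) and the pretectal area, the main targets of RGC axons found by a fluorescent tracer injected into the eyes, and from the pooled rest of the brain. The AP-positive RGC groups were Brn3b KO, Brn3b HET, Brn3a KO and Brn3a HET at postnatal day 3 (P3) and Brn3b KO and Brn3b HET at embryonic day 15 (E15), with 2 libraries each. Each of these 6 groups had 1 SN library. The brain groups had 3 SC, 3 LGN, 1 pretectal and 2 remaining-brain libraries. In a KO retina AP marks cells that switched on the locus of the gene they lack. The labels do not say whether replicate retinal libraries came from separate animals, so p-values measure only the spread between these libraries, which may be technical.

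Assigned counts ran between 28905675 and 37394655 per retinal library and between 10122962 and 13769685 per brain library. Pou4f1 was at 16.7 and 11 CPM, counts scaled to a common library total, in Brn3a KO RGC, against 486 and 444 CPM in Brn3a HET RGC. Pou4f2 was at 21.0 and 18.6 CPM in Brn3b KO RGC at P3, against 190 and 289 CPM in Brn3b HET RGC. At E15 the gap was smaller, with 65.7 and 63.1 CPM of Pou4f2 in Brn3b KO RGC against 325 and 224 CPM in Brn3b HET RGC. Libraries were grouped by title, and some labels conflict with the titles: the source names of all 12 Brn3b libraries name Brn3a, and those of the 6 E15 libraries name P3, while their genotype and age entries match the titles. Brn3a KO P3 RGC replicate 2 is Brn3a by its title and source name and Brn3b by its genotype entry. It held 11 CPM of Pou4f1 and 268 CPM of Pou4f2, as in Brn3a KO replicate 1 (16.7 and 391 CPM). The Brn3b KO P3 RGC libraries held more Pou4f1, 61.7 and 88.2 CPM, and far less Pou4f2, 21.0 and 18.6 CPM. Brn3b KO P3 RGC replicate 2, Brn3b HET E15 RGC replicate 2 and remaining-brain replicate 2 each held far more cell cycle counts than the other library of their group, so results that rest on them are also given without them. The 42 genes together held 2017 and 4596 CPM in the Brn3b KO P3 RGC libraries, 2947 and 6399 CPM in the Brn3b HET E15 RGC libraries and 834.2 and 1635 CPM in the remaining-brain libraries. All 14 microglia markers were higher in RGC than in SN at both ages. Their summed level was between 1395 and 5235 CPM in P3 RGC and between 918.2 and 1362 CPM in E15 RGC libraries, against 9.13 to 35.4 CPM in P3 SN and 9.93 to 10.6 CPM in E15 SN libraries. All 16 RGC markers were higher in RGC than in SN at P3, but their sums in Brn3b KO P3 RGC, 2039 and 2338 CPM, were the lowest of the AP-positive libraries. As a percent of the SN library of the same genotype and age, their median was 137% and 171% in Brn3b KO P3 RGC. At E15 it was 423% and 237% in Brn3b HET RGC but 147% and 115% in Brn3b KO RGC. Single markers in Brn3b KO E15 RGC ran from 38.3% (Sncg) to 515% (Cntn2) in replicate 1 and from 16.2% to 567% in replicate 2. Enrichment for RGCs was thus weak in the Brn3b KO libraries.

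At P3, when most RGCs have long left the cycle, cell cycle genes were lower in AP-positive RGC than in SN libraries almost without exception. edgeR's quasi-likelihood test with Benjamini-Hochberg adjustment, at an adjusted p under 0.05, called 41 of the 42 lower in RGC and 0 higher. The same test called 55.0% of the 16954 genes tested, 27.7% as lower and 27.3% as higher. The median log2 fold change was -1.95 over the 42 genes and -0.03 over all genes tested. These are bulk libraries, in which fewer cycling cells and less RNA per cell cannot be told apart. Retinal progenitor and Müller glia markers moved with them, 12 of 13 lower with sums of 654.6 to 1952 CPM in RGC against 2466 to 2970 CPM in SN; their part in the result was not tested.

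**Figure D1:**
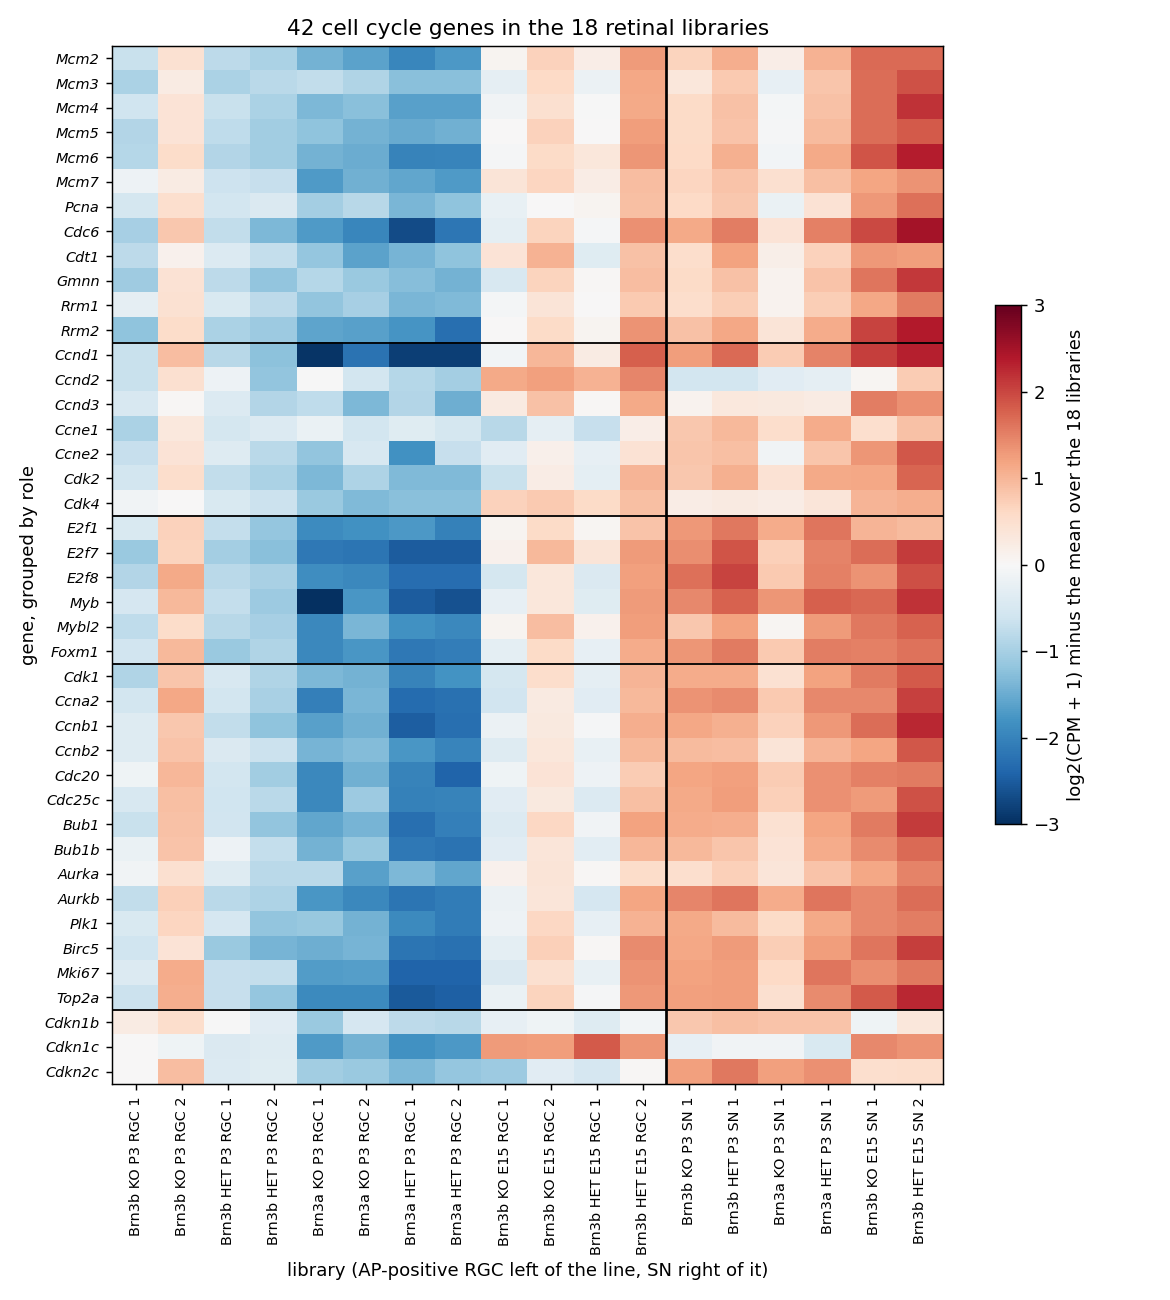
Level of each of the 42 genes (rows, grouped by role) in the 18 retinal libraries (columns), as log2(CPM + 1) minus the gene's mean over those libraries; red is above and blue below that mean. AP-positive RGC libraries stand left of the vertical line and SN libraries right of it, and the Brn3a RGC columns are the bluest, with sums over the 42 genes of 755.4 to 1006 CPM.

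The genes that load and run the replication machinery were all lower in P3 RGC: 12 of 12, with a median log2 fold change of -1.66. Mcm7, a subunit of the hexameric MCM helicase that unwinds DNA, had a lowest, median and highest level of 34.5, 55.8 and 136 CPM in the 8 P3 RGC libraries, against 160 to 214 CPM in the 4 P3 SN libraries. The groups did not overlap, and the log2 fold change was -1.70 ± 0.12 (SE; 3.24-fold lower, adjusted p = 1.47e-07). Cdc6, which loads that helicase onto origins, had 0.882, 3.23 and 20.4 CPM in RGC as lowest, median and highest, against 15.1 to 34.2 CPM in SN. Here 1 RGC library, Brn3b KO replicate 2, reached into the SN range, and the change was larger at -2.85 ± 0.37 (7.21-fold lower, adjusted p = 2.26e-05). Rrm2, the subunit of ribonucleotide reductase that is made in S phase, changed by -2.15 ± 0.28 (adjusted p = 2.47e-05). Pcna, the sliding clamp of DNA polymerase that is also used in DNA repair, had the smallest change of the 12 at -1.12 ± 0.20 (adjusted p = 0.000344). The other helicase subunits Mcm2, Mcm3, Mcm4 and Mcm5 changed by -1.31 (Mcm3) to -1.90 (Mcm2), and Rrm1, the large reductase subunit, by -1.29. Cdt1, a second loading factor, had 4.74, 8.07 and 18.03 CPM in RGC against 19.0 to 39.2 CPM in SN, with no overlap and a change of -1.69 ± 0.25. Gmnn (geminin), the protein that blocks Cdt1 after S phase begins, was lower by a like amount (-1.64 ± 0.29).

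Among the cyclins and kinases of G1 and the G1/S step, 6 of 7 were lower and 1 was not. Ccnd1, the main D-type cyclin of retinal progenitors, had 56.3, 140 and 838 CPM as lowest, median and highest in P3 RGC, against 744 to 1433 CPM in P3 SN. The groups overlapped only through Brn3b KO replicate 2, and the change was -2.86 ± 0.31 (7.25-fold lower, adjusted p = 5.44e-06). Ccnd2, its sister cyclin, behaved otherwise: it had 6.42, 9.95 and 22.1 CPM in RGC against 10.4 to 12.9 CPM in SN. The groups overlapped across the whole SN range, with a log2 fold change of -0.02 ± 0.24 (adjusted p = 0.955). Ccnd3 changed by -1.06 ± 0.21 (adjusted p = 0.000723). Of the genes of S phase entry, the E-type cyclins Ccne1 and Ccne2 changed by -1.33 ± 0.24 and -1.41 ± 0.29, and their kinase Cdk2 by -1.75 ± 0.26. Cdk4, the kinase partner of the D-type cyclins, had 94.8, 132 and 243 CPM in RGC and 279 to 312 CPM in SN. The groups did not overlap, and the change of -1.04 ± 0.07, though among the smallest, had the smallest adjusted p of the 42 (2.06-fold lower, adjusted p = 9.96e-08). Between 51.2% and 75.9% of the retinal counts of Cdk4 were assigned to transcripts that the annotation gives as non-coding, so its level is uncertain. Such transcripts also held 0% to 49% of the counts of Cdc20, a gene of mitosis, in P3 RGC and 1.85% to 40.4% in P3 SN.

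The 6 transcription factors were all lower and had the lowest median of the 5 role groups, -2.74. E2f1, an activator of S phase genes, had 9.30, 14.8 and 67.2 CPM in P3 RGC against 90.2 to 128 CPM in P3 SN, with no overlap and a change of -2.60 ± 0.20 (6.04-fold lower, adjusted p = 2.43e-07). E2f7, an E2F family repressor that is itself an E2F target, had 2.71, 5.78 and 32.6 CPM in RGC against 33.7 to 76.3 CPM in SN. It also showed no overlap and had the largest change of the 42 genes, -3.10 ± 0.30 (8.57-fold lower, adjusted p = 1.88e-06). Myb, a factor of immature and proliferating cells, had 9.39, 31.3 and 164 CPM in RGC against 212 to 290 CPM in SN, with no overlap and a change of -2.97 ± 0.31 (adjusted p = 3.91e-06). E2f8, the partner repressor of E2f7, changed by -2.88 ± 0.36 (adjusted p = 1.55e-05), and Foxm1, an activator of mitotic genes, was lower too at -2.54 ± 0.28. Mybl2, the B-Myb factor of the MuvB complex, was the smallest change of the 6 at -2.25 ± 0.30.

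All 14 genes of G2 and mitosis were lower, with a median of -2.27. Mki67, the Ki-67 protein that coats mitotic chromosomes and marks cycling cells, had 37.6, 93.7 and 441 CPM as lowest, median and highest in P3 RGC, against 309 to 621 CPM in P3 SN. Only Brn3b KO replicate 2 lay within the SN range, and the change was -2.29 ± 0.29 (4.88-fold lower, adjusted p = 1.72e-05). Aurkb, the kinase that corrects chromosome attachment, had 4.87, 9.98 and 43.2 CPM in RGC against 56.8 to 80.0 CPM in SN, with no overlap and a change of -2.76 ± 0.28 (adjusted p = 2.8e-06). Birc5, which works with Aurkb in the chromosomal passenger complex, changed by -2.49 ± 0.26 (adjusted p = 3.04e-06). Cdc20, an activator of the anaphase-promoting complex, changed by -2.27 ± 0.22, Ccnb1 by -2.26 ± 0.23 and the mitotic kinase Cdk1 was 3.99-fold lower. Aurka, the spindle pole kinase, had a smaller change than these at -1.49 ± 0.18. The S and G2 cyclin Ccna2 had 19.8, 45.1 and 229 CPM in RGC against 176 to 278 CPM in SN, where again Brn3b KO replicate 2 made the groups overlap (-2.33 ± 0.30). The second B-type cyclin Ccnb2, the spindle checkpoint kinases Bub1 and Bub1b, the mitotic kinase Plk1 and the Cdk1-activating phosphatase Cdc25c changed by -1.77 (Bub1b) to -2.38 (Cdc25c).

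The CDK inhibitors, which restrain the cycle, were also lower in RGC than in SN, 3 of 3. Cdkn1b (p27), an inhibitor that accumulates in cells leaving the cycle, had 67.8, 110 and 215 CPM in P3 RGC against 258 to 278 CPM in P3 SN, with no overlap and a change of -1.20 ± 0.12 (2.3-fold lower, adjusted p = 1.97e-06). Cdkn1c (p57) had 6.69, 14.01 and 26.2 CPM in RGC against 18.5 to 23.9 CPM in SN. The Brn3b libraries of Cdkn1c lay within or just above the SN range and the Brn3a libraries below it, and the change of -0.77 ± 0.11 was the smallest of those called (1.71-fold lower, adjusted p = 4.11e-05). Cdkn2c (p18), an inhibitor of Cdk4 and Cdk6, had 4.20, 7.23 and 24.1 CPM in RGC against 30.1 to 39.0 CPM in SN, with no overlap and a change of -2.06 ± 0.18 (adjusted p = 8.75e-07). The count was 41 with any 1 library left out. The median of the 42 was -2.71 with the Brn3a libraries alone on the RGC side and -1.29 with the Brn3b libraries alone, each against the 4 SN libraries.

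Compared per length, in TPM, counts per transcript length scaled to a common total, Cdk4 was the most abundant of the 42 in all groups except the Brn3b HET P3 SN library, where Ccnd1 stood at 842.9 TPM and Cdk4 at 788.2 TPM. The Cdk4 level was 395.9 ± 168.8 TPM in P3 RGC and 793.5 ± 33.0 TPM in P3 SN (SD, n = 8 and 4). It includes transcripts annotated as non-coding, which held 51.2% to 75.9% of its retinal and 25.4% to 60.9% of its brain counts. Its rank on coding transcripts alone was not computed. The D-type cyclins differed widely in level within SN at P3: Ccnd1 stood second at 677 ± 162 TPM, Ccnd3 at 31.0 ± 9.75 TPM, and Ccnd2 was the least abundant of the 42 at 3.99 ± 0.53 TPM. In P3 RGC the level of Ccnd1 was 122 ± 149 TPM, an SD above the mean that reflects the spread between 56.3 and 838 CPM, and E2f7 was the least abundant at 3.35 ± 3.52 TPM.

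Other genes of the same pathways were also mostly lower at P3. Of 32 other DNA replication and S phase genes, 32 were lower in RGC than in SN, with a median of -1.29, among them Uhrf1, which keeps DNA methylation at the fork, at -2.50 ± 0.29, and Mcm10 at -2.39 ± 0.30. Of 44 other mitosis genes, 44 were lower, including the centrosome kinase Nek2 at -2.53 ± 0.26 and the condensin subunit Ncapg at -2.65 ± 0.28. Of 29 other regulators, 21 were lower and 3 higher; Fbxo5, an inhibitor of the anaphase-promoting complex, changed by -2.67 ± 0.28 and Tfdp2, an E2F dimer partner, by -1.80 ± 0.16.

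Genes of replication and of mitosis are known to be controlled through different short elements near their start. E2F factors bind sites in replication genes, whereas many mitotic genes carry CCAAT boxes, bound by NF-Y, together with a cell cycle homology region (CHR), bound by MuvB complexes. Because the members moved together, the promoters of the 32 members found in the RefSeq table (GRCm38.p6; 35 promoters, 250 bases before to 50 after the start) were searched on both strands for CCAAT, for the CHR letters TTTGAA and their variant TTCGAA, and for 4 E2F-like strings, which were TTTCGCG or TTTGGCG or TTTCCCG or TTTGCCG. The CCAAT letters were in 71.4% of the members' promoters and in 37.4% of all 32851 promoters of the table. CHR letters were in 34.3% and 19.2%, and E2F-like letters in 34.3% and 6.7%. Of 11 promoters of G2/M members, 10 held CCAAT, 9 held CHR letters and 2 held E2F-like letters, whereas of 11 promoters of replication members 9, 2 and 6 did. A match describes letters and is not a site. The 160 bases before the start are printed for 3 mitotic genes with CHR letters, 2 helicase subunits with E2F-like letters, and Cdk4, which has no match in this window; these were picked after the matches had been seen. Each runs 5′ to 3′ on the gene's strand with the matched letters of either strand in capitals. Matches that overlap on opposite strands join into 1 longer run, as in Mcm5 and Mcm6. Coordinates are GRCm38.p6: Cdk1 at chr10:69352913-69353072 (minus strand), Cdc20 at chr4:118437344-118437503 (minus), Top2a at chr11:99024190-99024349 (minus), Mcm5 at chr8:75109349-75109508 (plus), Mcm6 at chr1:128359706-128359865 (minus) and Cdk4 at chr10:127063375-127063534 (plus).
Cdk1: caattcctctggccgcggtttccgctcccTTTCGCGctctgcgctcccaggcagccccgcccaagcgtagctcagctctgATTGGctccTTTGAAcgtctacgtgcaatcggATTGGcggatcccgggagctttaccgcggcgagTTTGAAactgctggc
Cdc20: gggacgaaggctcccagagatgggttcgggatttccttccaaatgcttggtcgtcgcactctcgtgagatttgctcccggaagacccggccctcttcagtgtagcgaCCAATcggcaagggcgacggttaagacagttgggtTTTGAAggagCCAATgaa
Top2a: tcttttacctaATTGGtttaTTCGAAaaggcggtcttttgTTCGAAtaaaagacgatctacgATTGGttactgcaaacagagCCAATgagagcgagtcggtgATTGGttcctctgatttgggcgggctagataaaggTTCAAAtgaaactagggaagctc
Mcm5: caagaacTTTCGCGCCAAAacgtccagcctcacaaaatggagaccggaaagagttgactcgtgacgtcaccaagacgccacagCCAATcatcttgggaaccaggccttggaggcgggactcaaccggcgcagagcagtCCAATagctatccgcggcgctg
Mcm6: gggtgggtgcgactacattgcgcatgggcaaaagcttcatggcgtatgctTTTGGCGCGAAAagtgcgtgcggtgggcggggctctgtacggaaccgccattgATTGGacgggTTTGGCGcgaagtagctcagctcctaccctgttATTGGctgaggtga
Cdk4: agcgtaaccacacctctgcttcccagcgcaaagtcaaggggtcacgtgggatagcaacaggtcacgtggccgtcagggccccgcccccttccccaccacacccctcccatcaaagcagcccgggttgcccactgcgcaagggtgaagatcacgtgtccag

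Top2a, the topoisomerase that untangles chromosomes before they part and whose window above holds 4 CCAAT and 3 CHR matches, had 36.3, 75.3 and 452 CPM as lowest, median and highest in P3 RGC, against 298 to 566 CPM in P3 SN. Only Brn3b KO replicate 2 lay within the SN range, and the log2 fold change was -2.36 ± 0.29 (adjusted p = 1.48e-05). Mcm6, with 3 E2F-like and 2 CCAAT matches and no CHR letters, had 18.4, 32.5 and 113 CPM in RGC against 72.8 to 171 CPM in SN. The groups overlapped, again through Brn3b KO replicate 2, with a change of -1.89 ± 0.26 (adjusted p = 3.84e-05). Cdk4, with none of the 3 motifs, was lower as well, as given above. Any relation between matches and fold changes was not tested.

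At E15, when RGCs are being born among dividing progenitors, the same contrast again had calls in 1 direction. The test called 32 of 42 genes lower in RGC than in SN and 0 higher, beside 26.3% of all genes tested, 13.0% as lower and 13.4% as higher. The median was -1.27 over the 42 genes and -0.01 over all genes. Lower calls numbered 11 of 12 among replication genes, 5 of 7 among G1 and G1/S genes, 2 of 6 among transcription factors, 13 of 14 among G2/M genes and 1 of 3 among inhibitors. Progenitor markers moved in the same direction, 6 of 13 lower, with sums of 1533 to 3334 CPM in RGC against 4326 and 4928 CPM in SN, and their part was not tested. The count rests on few libraries: it was 0 without the HET SN library, 10 without KO RGC replicate 1 and 11 without HET RGC replicate 1.

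Ccnb1, the cyclin that activates Cdk1 for mitosis, had the smallest adjusted p at E15, with 47.3 and 65.9 CPM in KO RGC and 51.6 and 114 CPM in HET RGC, against 172 and 261 CPM in SN. All 4 RGC libraries lay below both SN libraries, a change of -1.66 ± 0.32 (3.16-fold lower, adjusted p = 0.0036). Mcm4, a helicase subunit, had 54.6 to 129 CPM in RGC against 190 and 265 CPM in SN, also without overlap (-1.51 ± 0.33, adjusted p = 0.00633). Ccnd1 had 414 and 872 CPM in KO RGC and 522 and 1526 CPM in HET RGC, against 1840 and 2215 CPM in SN. The RGC libraries were widely spread but all lay below SN (-1.32 ± 0.44, adjusted p = 0.0418). E2f1 had 42.8 to 75.3 CPM in RGC and 84.6 and 80.9 CPM in SN, with no overlap, and did not pass the test at -0.56 ± 0.29 (adjusted p = 0.16), nor did Mki67 at -1.06 ± 0.41 (adjusted p = 0.0695). E2f7, E2f8, Mybl2 and Ccnd3 missed the threshold with adjusted p between 0.0511 (E2f7) and 0.0836 (Mybl2), and Cdt1 and Cdkn1b with 0.143 and 0.161. Ccnd2 pointed the other way: it had 33.3 to 45.2 CPM in RGC against 16.4 and 27.5 CPM in SN. Its groups did not overlap, but the change of 0.80 ± 0.35 did not pass (adjusted p = 0.106). Cdkn1c had 62.9 to 95.5 CPM in RGC around the SN values of 72.6 and 67.3 CPM (0.04 ± 0.15, adjusted p = 0.89). Other pathway genes were lower in 25 of 32 (replication), 42 of 44 (mitosis, with the spindle factor Tpx2 at -1.51 ± 0.32) and 19 of 29 (regulators, 1 higher).

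Whether the RGC to SN difference itself changed between P3 and E15 was tested with the Brn3b RGC libraries against SN pooled over genotype, so the P3 side includes the Brn3a SN libraries. edgeR called 0 of 42 genes, beside 6.87% of all genes, 3.71% higher and 3.16% lower, with 1 gene at an unadjusted p under 0.05. The median difference of log2 fold changes was -0.02. That gene was E2f1, with a difference of -1.23 ± 0.39 (adjusted p = 0.0697), and DESeq2 called 1 gene, also E2f1. The larger number of calls at P3 is thus not shown to be a larger difference.

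**Figure D2:**
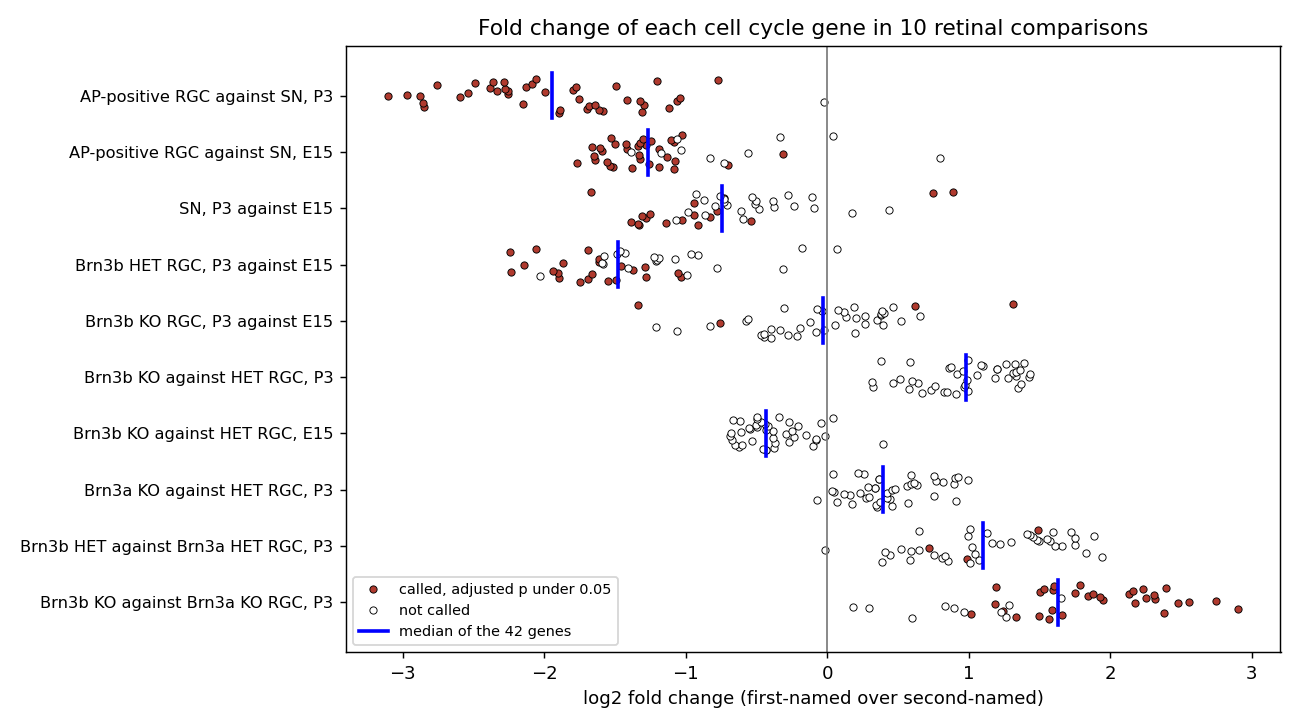
Log2 fold change of each of the 42 genes (points) in 10 retinal comparisons (rows, first-named group over second-named), filled where the adjusted p was under 0.05; the blue bar is the median of the 42. The medians are -1.95 and -1.27 for RGC against SN at P3 and E15, and 1.63 for Brn3b KO against Brn3a KO RGC.

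Age was compared within each fraction, and these comparisons use the same libraries as those above. In SN, 16 of 42 genes were lower and 2 higher at P3 than at E15, beside 33.1% of all genes called, 15.6% higher and 17.5% lower. The lower calls were 10 of 12 replication genes, 3 of 7 G1 and G1/S genes, 2 of 14 G2/M genes and Cdkn1c, and edgeR called 0 of the 6 transcription factors, with 0 at an unadjusted p under 0.05. The inhibitors split. Cdkn1b had 258 to 278 CPM at P3 against 135 and 186 CPM at E15, without overlap, and was higher at P3 (0.74 ± 0.18, adjusted p = 0.00572). Cdkn2c had 30.1 to 39.0 CPM at P3 against 17.8 and 18.1 CPM at E15 and was higher as well (0.89 ± 0.28, adjusted p = 0.0246). Cdkn1c had 18.5 to 23.9 CPM at P3 against 72.6 and 67.3 CPM at E15. It was 3.18-fold lower at P3, with the groups far apart (-1.67 ± 0.15, adjusted p = 6.09e-06). Of the cyclins, Ccnd3 and Ccnd2 were lower at P3 (-1.25 ± 0.29 and -0.94 ± 0.33), whereas Ccnd1 did not pass (-0.87, adjusted p = 0.152). Mki67 had 309 to 621 CPM at P3 against 534 and 612 CPM at E15 and did not pass (-0.28 ± 0.42, adjusted p = 0.648). Other replication genes were lower in 24 of 32, with the clamp loader Rfc4 at -1.50 ± 0.28, and other mitosis genes in 10 of 44. Among other regulators, 6 of 29 were lower and 3 higher at P3; the phosphatase Cdc25a changed by -1.36 ± 0.17, and Cdkn1a (p21) by 1.23 ± 0.23. In the same comparison 6 of 7 photoreceptor markers were higher at P3 and 1 lower, with sums of 2899 to 3357 CPM at P3 against 954.2 and 1087 CPM at E15. Of the RGC markers 12 of 16 were lower and 1 higher, and of the progenitor markers 3 of 13 were lower and 1 higher; their part was not tested. The count of 18 was 4 without the HET E15 SN library, 9 without the Brn3a KO SN library and 10 without the Brn3b KO P3 SN library.

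In Brn3b HET RGC, 22 of 42 genes were lower at P3 than at E15 and 0 higher, beside 28.8% of all genes called, 16.6% as higher and 12.3% as lower. The median log2 fold change was -1.48. Mcm7 had 73.3 and 70.6 CPM at P3 against 134 and 218 CPM at E15, without overlap (-1.28 ± 0.22, adjusted p = 0.00274). Cdk4 had 176 and 154 CPM at P3 against 361 and 448 CPM at E15 (-1.29 ± 0.14, adjusted p = 0.00035). Cdkn1c had 18.9 and 19.7 CPM at P3 against 95.5 and 66.3 CPM at E15, the same direction as in SN (-2.06 ± 0.19, 4.17-fold lower, adjusted p = 0.000162). These 3 genes kept their call in all 12 alternatives. Ccnd1 had 247 and 187 CPM at P3 against 522 and 1526 CPM at E15 and was lower (-2.23 ± 0.61, adjusted p = 0.0219), and Ccnd2 was lower too (-1.94 ± 0.44, adjusted p = 0.00986). The other lower calls were the remaining 5 MCM subunits, Pcna, Gmnn, Rrm1, Rrm2, Ccnd3, E2f1, E2f7, Mybl2, Foxm1, Ccnb1, Birc5 and Top2a. The 2 E15 libraries lay far apart, and the count was 4 without HET E15 replicate 2, 34 without HET E15 replicate 1, 5 without P3 replicate 1 and 3 without P3 replicate 2. All 14 microglia, 7 of 8 endothelial, 6 of 7 photoreceptor and 5 of 7 amacrine markers were higher at P3, and 6 of 13 progenitor and 7 of 16 RGC markers were lower, with 1 amacrine marker lower and 2 RGC markers higher; their part was not tested.

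In Brn3b KO RGC, only 4 of 42 genes were called between the ages, 2 higher and 2 lower at P3, beside 25.4% of all genes, 14.4% higher and 11.1% lower, and the median was -0.03. Cdkn1b had 176 and 215 CPM at P3 against 123.2 and 134.9 CPM at E15 and was higher (0.62 ± 0.20, adjusted p = 0.0481). Cdkn2c was higher as well, with 12.4 and 24.1 CPM at P3 against 5.23 and 9.59 CPM at E15 (adjusted p = 0.0287). Cdk4 had 225 and 243 CPM at P3 against 387 and 413 CPM at E15 and was lower (-0.76 ± 0.14, adjusted p = 0.00437). Cdkn1c had 26.2 and 23.6 CPM at P3 against 64.7 and 62.9 CPM at E15, 2.53-fold lower (-1.34 ± 0.19, adjusted p = 0.000959). Mki67 had 154 and 441 CPM at P3 and 150 and 286 CPM at E15, overlapping ranges that did not pass (0.46 ± 0.53, adjusted p = 0.571). Cdk4 and Cdkn1c kept their call in all 11 alternatives. Cdkn1b lost its call when any of the 4 libraries was left out, and Cdkn2c lost it without KO P3 replicate 2 or KO E15 replicate 1. Without KO E15 replicate 1 the count was 2, and the median of the 42 was 0.45 without KO P3 replicate 1 and -0.82 without KO P3 replicate 2. In the same comparison 7 of 14 microglia, 7 of 8 endothelial, 6 of 7 photoreceptor and 5 of 7 amacrine markers were higher at P3 and 9 of 16 RGC markers lower, with 1 amacrine marker lower and 2 RGC markers higher; their part was not tested. Cdkn1c was thus lower at P3 in SN, in Brn3b HET RGC and in Brn3b KO RGC, 3 comparisons made with different libraries.

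**Figure D3:**
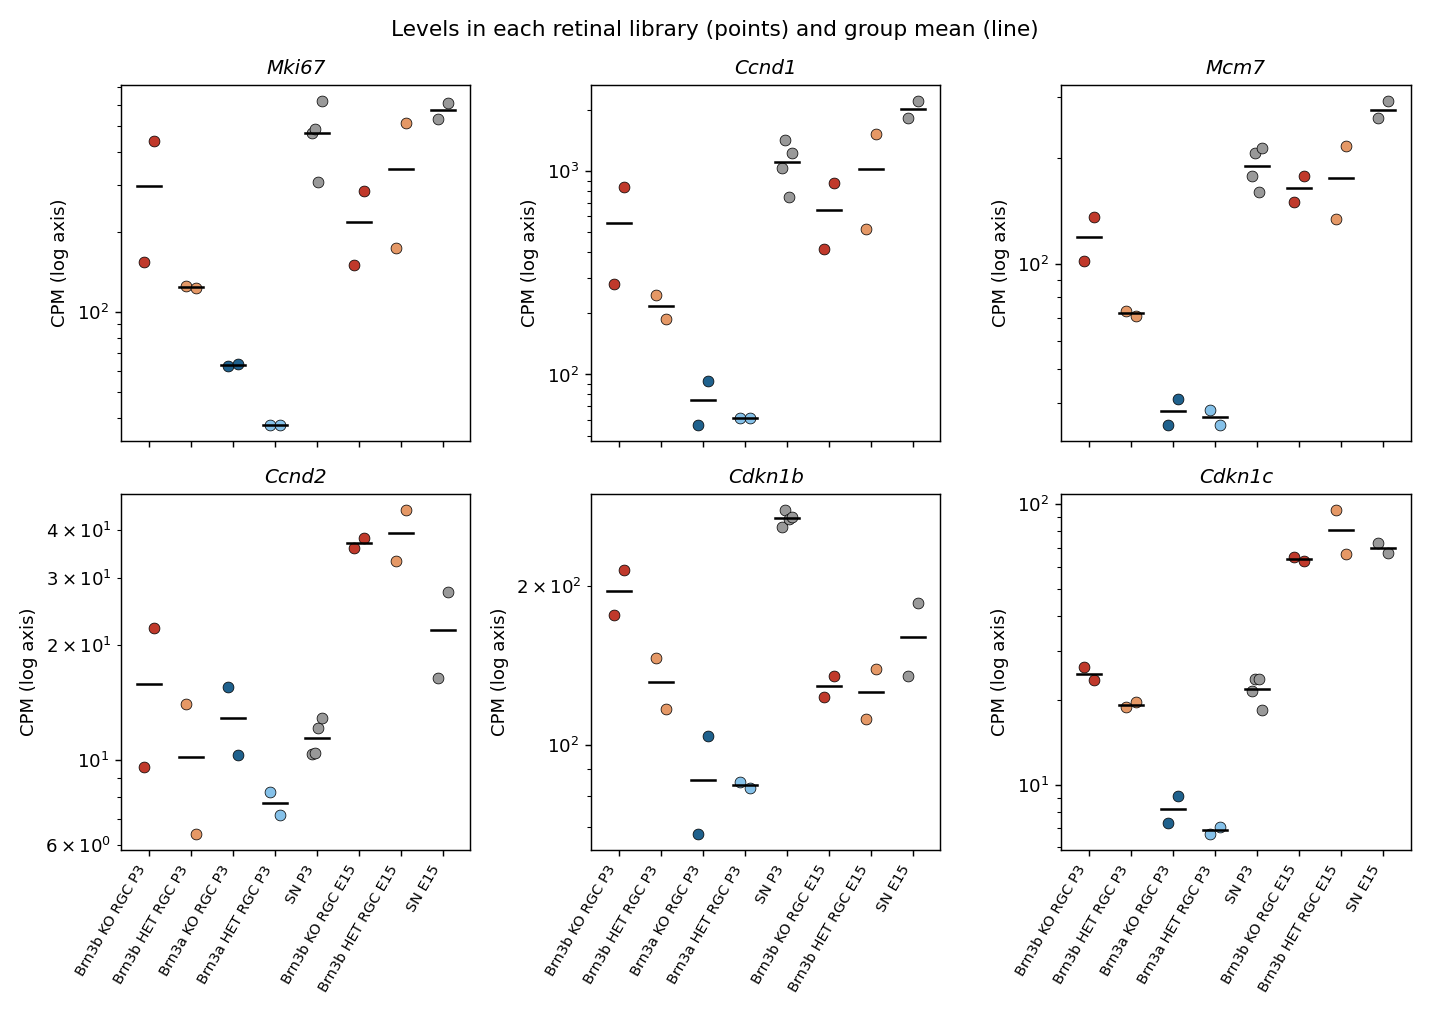
CPM (log axis) of 6 genes in each retinal library (points), by group, with the group mean as a line; the 4 P3 SN and 2 E15 SN libraries of all genotypes are pooled. Cdkn1c is between 62.9 and 95.5 CPM at E15 and at most 26.2 CPM at P3, and the 2 Brn3b KO P3 libraries of Ccnd1 differ widely (277 and 838 CPM).

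Loss of the second copy was tested by KO against HET at each locus and age, and none of the 42 genes passed. For Brn3b at P3, edgeR called 0 of 42, beside 3.41% of all genes, 0.264% higher and 3.15% lower, with 17 at an unadjusted p under 0.05; DESeq2 called 7 higher, namely Ccnb1, Cdc20, Cdk4, Cdkn1b, E2f1, Foxm1 and Mcm7. All 42 fold changes were positive, with a median of 0.98. Cdk4 had 225 and 243 CPM in KO against 176 and 154 CPM in HET, without overlap (0.51 ± 0.14, adjusted p = 0.0849). Mki67 had 154 and 441 CPM in KO against 126 and 124 CPM in HET, both KO libraries above both HET libraries but far apart from each other (1.26 ± 0.54, adjusted p = 0.241). Ccnd1 had 277 and 838 CPM in KO against 247 and 187 CPM in HET (1.37 ± 0.59, adjusted p = 0.244). The median of the 42 was 0.23 without KO replicate 2 and 1.54 without KO replicate 1. In the same comparison 11 of 16 RGC markers and 10 of 14 microglia markers were lower in KO and 1 of 13 progenitor markers was higher; their part was not tested.

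For Brn3b at E15, edgeR and DESeq2 called 0 of 42 each, beside 1.85% of all genes for edgeR, 0.666% higher and 1.18% lower, with 0 at an unadjusted p under 0.05. The median was -0.43, and 2 fold changes were positive. Mki67 had 150 and 286 CPM in KO against 175 and 516 CPM in HET, with overlap (-0.67 ± 0.53, adjusted p = 0.722). Without HET replicate 2 the median was 0.29, so even its sign rests on that library. For Brn3a at P3, edgeR and DESeq2 again called 0 of 42, beside 0.0180% of all genes for edgeR, 0.0120% higher and 0.00600% lower, with 0 at an unadjusted p under 0.05. The median was 0.40, and 41 fold changes were positive. Mki67 had 62.6 and 63.7 CPM in Brn3a KO against 37.6 and 37.8 CPM in Brn3a HET, pairs that lie apart but did not pass (0.75 ± 0.54, adjusted p = 1). With only the groups compared in the fit, edgeR called 0 of 42 as well. Ccnb1 had 16.5 and 18.9 CPM in KO against 8.79 and 10.3 CPM in HET (0.90 ± 0.43, unadjusted p = 0.0648). The difference of the Brn3b KO effect between P3 and E15 had a median of 1.35, with 0 genes called by edgeR or DESeq2, beside 0.192% of all genes, 0.00600% higher and 0.186% lower, and 21 at an unadjusted p under 0.05. That median was 0.65 without Brn3b KO P3 replicate 2 and -0.04 without both that library and Brn3b HET E15 replicate 2. The difference of the KO effect between Brn3b and Brn3a had a median of 0.50, or -0.23 without Brn3b KO replicate 2; edgeR and DESeq2 called 0 genes, beside 0.0120% of all genes, 0.00600% in each direction, and 1 had an unadjusted p under 0.05.

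AP-positive cells of the Brn3b and the Brn3a locus were compared within KO and within HET. These comparisons share libraries with the preceding ones. Between the KO groups at P3, 32 of 42 genes were higher in Brn3b KO than in Brn3a KO RGC and 0 lower, beside 36.0% of all genes called, 16.7% as higher and 19.2% as lower, and the median was 1.63. The higher calls were 8 of 12 replication genes, 2 of 7 G1 and G1/S genes, 6 of 6 transcription factors, 13 of 14 G2/M genes and 3 of 3 inhibitors. Ccnd1 had 277 and 838 CPM in Brn3b KO against 56.3 and 93.3 CPM in Brn3a KO, without overlap (2.90 ± 0.62, 7.47-fold higher, adjusted p = 0.00685). E2f1 had 29.6 and 67.2 CPM in Brn3b KO against 10.4 and 11.01 CPM in Brn3a KO (2.17 ± 0.40, 4.51-fold higher, adjusted p = 0.00341). Mcm7 had 102 and 136 CPM in Brn3b KO against 34.6 and 41.0 CPM in Brn3a KO, again without overlap (1.66 ± 0.23, 3.16-fold higher, adjusted p = 0.00117). Mki67 had 154 and 441 CPM in Brn3b KO against 62.6 and 63.7 CPM in Brn3a KO (2.23 ± 0.56, 4.7-fold higher, adjusted p = 0.0127). Of the inhibitors, Cdkn1b had 176 and 215 CPM in Brn3b KO against 67.8 and 104 CPM in Brn3a KO (1.19 ± 0.20, adjusted p = 0.00253), and Cdkn1c was higher by 1.60 ± 0.19 (adjusted p = 0.000871). Ccnd2 did not pass here either (0.29, adjusted p = 0.62), nor did Ccnd3, Ccne1, Ccne2, Cdk2, Mcm3, Mcm5, Cdt1, Gmnn and Cdk1, whose log2 fold changes were between 0.18 (Ccne1) and 1.65 (Cdk1).

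The count between the KO groups was 7 without Brn3b KO replicate 2, 8 without Brn3a KO replicate 1, 20 without Brn3a KO replicate 2, the library with the mixed label, and 36 without Brn3b KO replicate 1. Mcm7, Cdk4, E2f1, Cdc20, Cdkn1b and Cdkn1c kept their call in all 12 alternatives. Markers of other cells moved in the same comparison: all 7 amacrine, 5 of 7 photoreceptor and 10 of 13 progenitor markers were higher in Brn3b KO, 1 progenitor marker was lower, and all 16 RGC and all 14 microglia markers were lower. The summed amacrine level was 1029 and 833.7 CPM in Brn3b KO against 132.6 and 299.2 CPM in Brn3a KO. The part of these markers in the result was not tested. Of other pathway genes, 13 of 32 replication genes, 38 of 44 mitosis genes and 10 of 28 tested regulators were higher in Brn3b KO, and 3 of the regulators were lower; Tpx2 was higher by 1.96 ± 0.43, while Cdkn1a was lower (-1.54 ± 0.20).

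Between the HET groups, 3 of 42 genes were higher in Brn3b HET than in Brn3a HET RGC and 0 lower, beside 3.85% of all genes called, 2.03% as higher and 1.82% as lower. Cdkn1c had 18.9 and 19.7 CPM in Brn3b HET against 6.69 and 7.10 CPM in Brn3a HET (1.49 ± 0.19, 2.8-fold higher, adjusted p = 0.00813). Cdk4 had 176 and 154 CPM in Brn3b HET against 101 and 100 CPM in Brn3a HET (0.72 ± 0.14, 1.65-fold higher, adjusted p = 0.0344). Mcm7 had 73.3 and 70.6 CPM in Brn3b HET against 38.1 and 34.5 CPM in Brn3a HET (0.99 ± 0.22, 1.99-fold higher, adjusted p = 0.0439). In all 3 genes the pairs lay apart. The median was 1.10 and 29 genes had an unadjusted p under 0.05, among them genes short of the adjusted threshold such as Mki67, with 126 and 124 CPM in Brn3b HET against 37.6 and 37.8 CPM in Brn3a HET (1.73 ± 0.55, adjusted p = 0.0843). Markers moved here too: 4 of 7 amacrine and 1 of 7 photoreceptor markers were higher in Brn3b HET, 1 of 16 RGC and 1 of 14 microglia markers were lower, and 1 of 13 progenitor markers was lower. Photoreceptor markers summed to 2771 to 3735 CPM in Brn3b HET against 956.4 to 978.2 CPM in Brn3a HET, and the part of these markers was not tested. The count depended on the fit: it was 34 with these 4 libraries alone, 0 without either Brn3a HET library and 1 without either Brn3b HET library.

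**Figure D4:**
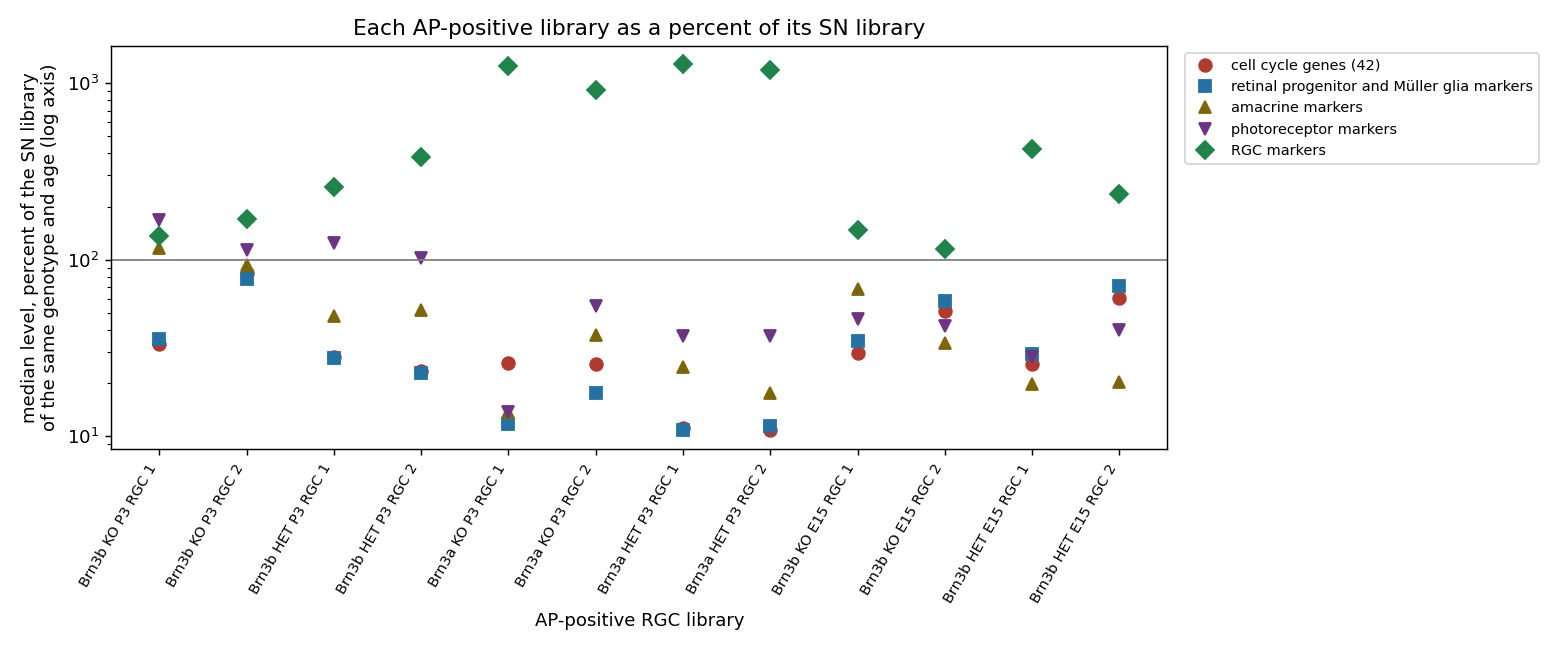
Median level of the 42 cell cycle genes and of 4 marker lists in each AP-positive RGC library (columns), as a percent of the SN library of the same genotype and age (log axis; the line marks 100%). The cell cycle median is 10.8% to 11.2% in Brn3a HET and reaches 83.8% in Brn3b KO P3 replicate 2, where the progenitor median is 78.1%.

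Set against the SN library of the same genotype and age, the median level of the 42 genes in P3 RGC was 33.3% and 83.8% in Brn3b KO, 28.2% and 23.4% in Brn3b HET, 25.9% and 25.6% in Brn3a KO, and 11.2% and 10.8% in Brn3a HET. At E15 it was 29.8% and 51.1% in Brn3b KO and 25.7% and 60.6% in Brn3b HET. Each percent also depends on 1 SN library. The Brn3a KO SN library held 309 CPM of Mki67, against 471 to 621 CPM in the other P3 SN libraries. Its Mcm6 was at 72.8 CPM against 118 to 171 CPM, but its Cdkn1c, at 23.8 CPM against 18.5 to 23.9 CPM, was not low. Between Brn3a KO and HET RGC, edgeR called 0 of the 42 genes, with a median log2 fold change of 0.40. Retinal progenitor and Müller glia markers had medians of 35.4% and 78.1% in Brn3b KO, 27.9% and 22.8% in Brn3b HET, 11.7% and 17.5% in Brn3a KO, and 10.8% and 11.4% in Brn3a HET at P3. Their E15 medians were 34.6% and 58.4% in Brn3b KO and 29.4% and 70.8% in Brn3b HET. The cell cycle median stood above the progenitor median in both Brn3a KO and both Brn3b HET P3 libraries. The same order held in Brn3b KO P3 replicate 2 and Brn3a HET replicate 1, and the reverse in the other libraries. The 2 libraries with the highest medians, Brn3b KO P3 replicate 2 and Brn3b HET E15 replicate 2, were the highest for both lists, and the part of progenitor cells in these values was not tested.

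In the brain at P3 the 42 genes together held 778.7 to 800.9 CPM in SC, 745.0 to 864.4 CPM in LGN, 857.3 CPM in the pretectal library and 834.2 and 1635 CPM in the remaining brain. Retina and brain were sequenced and read in different ways and were not tested against each other. The remaining-brain group is the shared comparator of SC and LGN, and its replicate 2 stood apart: Mki67 was at 69.3 CPM there and at 22.5 CPM in replicate 1. Cerebellar granule cell markers summed to 661 CPM in remaining-brain replicate 2 and 133.7 CPM in replicate 1, and the part of this difference in the results was not tested.

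SC differed from LGN in 1 of 42 genes, beside 10.2% of all genes called, 4.41% as higher and 5.78% as lower. Cdkn1c had 48.0, 26.7 and 42.1 CPM in SC against 68.6, 69.7 and 73.0 CPM in LGN, with all 3 SC libraries below all LGN libraries (-0.85 ± 0.19, 1.81-fold lower, adjusted p = 0.0187). With SC and LGN libraries of the same number paired, Cdkn1c was called again and Mcm7 was called as higher in SC (0.70 ± 0.18, adjusted p = 0.0435); Mcm7 had 27.7, 37.4 and 28.2 CPM in SC against 18.1, 22.9 and 16.6 CPM in LGN. Without pairing Mcm7 did not pass (0.69 ± 0.29, adjusted p = 0.174), nor did Cdkn1b (-0.53 ± 0.15, adjusted p = 0.058). Without LGN replicate 2 or LGN replicate 3 the count was 0, and without SC replicate 1 it was 2. In the same comparison 4 of 8 brain progenitor markers were lower in SC, and their part was not tested.

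Against the remaining brain, 4 of 42 genes were lower in SC and 0 higher, beside 6.94% of all genes called, 3.19% as higher and 3.75% as lower; the median was -0.74. E2f1 had 3.36, 4.63 and 6.26 CPM in SC against 19.8 and 28.7 CPM in the remaining brain, well apart (-2.35 ± 0.29, 5.09-fold lower, adjusted p = 0.00165). Ccnd2 had 71.5, 56.7 and 52.0 CPM in SC against 89.1 and 180 CPM in the remaining brain (-1.16 ± 0.26, adjusted p = 0.0266). Myb and Top2a were the other two lower genes (-1.82 ± 0.45 and -1.33 ± 0.32). With a block for the numbers that the SC and remaining-brain titles share, E2f1 and Top2a were called and Ccnd2 and Myb were not. Without remaining-brain replicate 2 only E2f1 was called, as it was without SC replicate 2 or SC replicate 3, and without remaining-brain replicate 1 the count was 21.

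In LGN, 8 of 42 genes were lower than in the remaining brain and 1 was higher, beside 10.9% of all genes called, 5.17% as lower and 5.76% as higher. E2f1 had 4.09, 4.13 and 5.92 CPM in LGN against the same 19.8 and 28.7 CPM (-2.36 ± 0.29, 5.14-fold lower, adjusted p = 0.000993). Myb had 1.07, 1.84 and 0.739 CPM in LGN against 4.62 and 6.89 CPM in the remaining brain (-2.22 ± 0.46, adjusted p = 0.0138). Mki67 had 17.1, 18.2 and 13.97 CPM in LGN against 22.5 and 69.3 CPM, all LGN libraries below both others (-1.48 ± 0.38, adjusted p = 0.0359). Mcm4, Mcm6, Mcm7, Birc5 and Top2a were the other lower genes. Cdkn1c, the single higher gene, had 68.6, 69.7 and 73.0 CPM in LGN against 27.1 and 31.2 CPM in the remaining brain, a 2.42-fold difference without overlap (1.27 ± 0.22, adjusted p = 0.00582). A related inhibitor outside the 42, Cdkn1a, was also higher in LGN (1.08 ± 0.12, adjusted p = 0.000561). With a block for the numbers that the LGN and remaining-brain titles share, the 9 members were called again and Cdk1 was called as well. The count of 9 was 2 without LGN replicate 1 or remaining-brain replicate 2, 4 without LGN replicate 2, 3 without LGN replicate 3 and 28 without remaining-brain replicate 1.

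**Figure D5:**
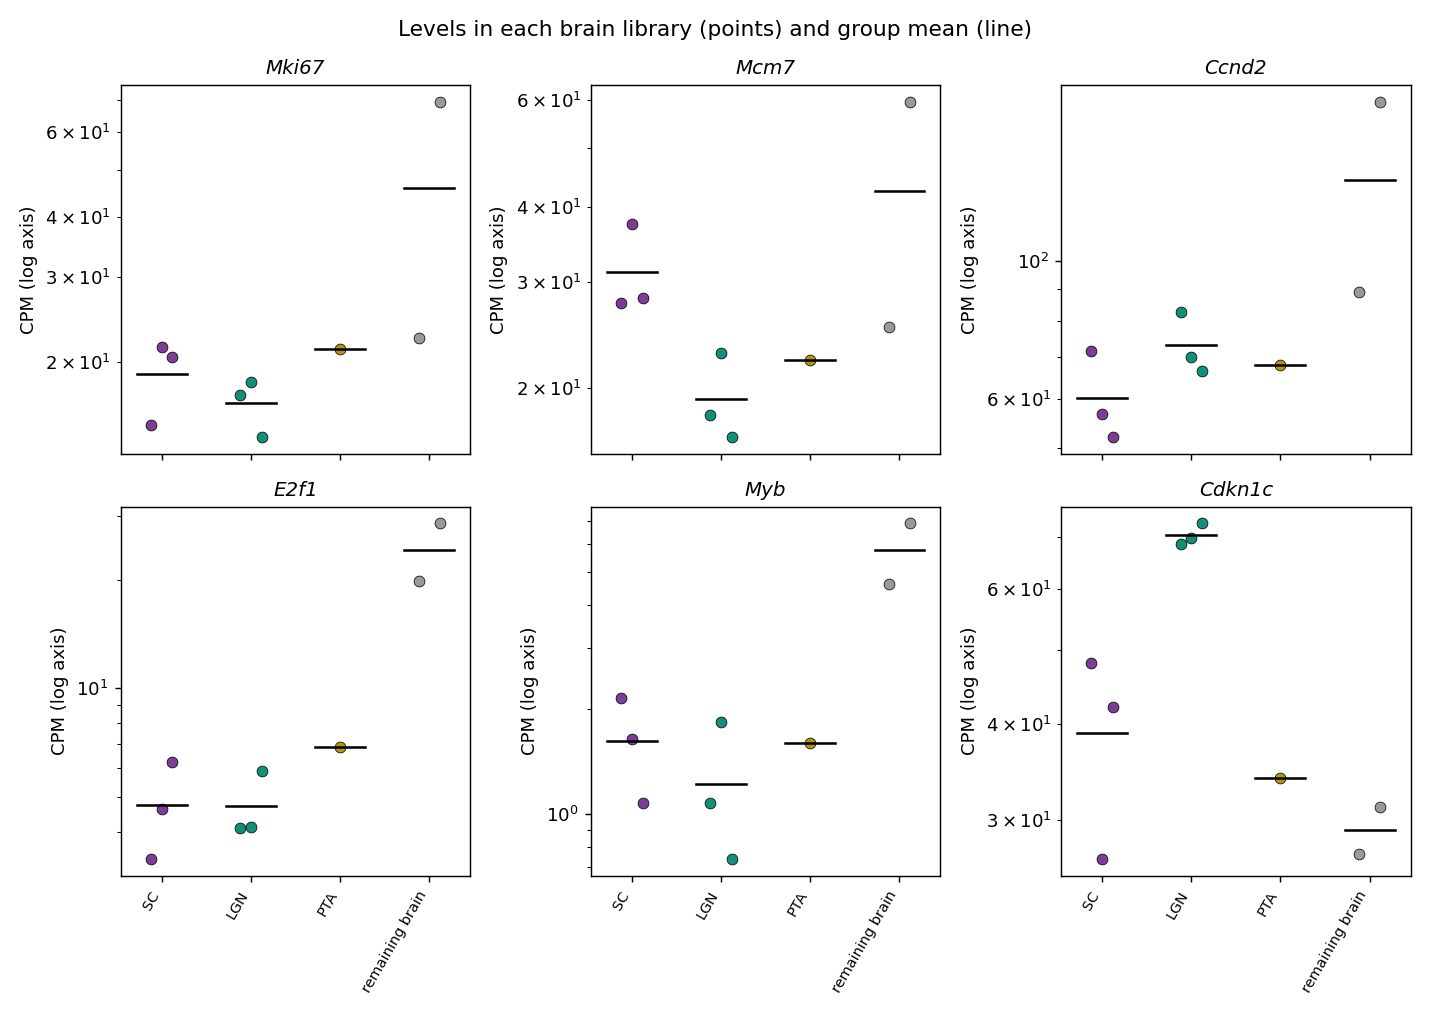
CPM (log axis) of 6 genes in each brain library (points), by region, with the group mean as a line; the pretectal area (PTA) has 1 library. E2f1 is at 3.36 to 6.26 CPM in SC and 4.09 to 5.92 CPM in LGN, below the remaining brain at 19.8 and 28.7 CPM, and Cdkn1c is highest in LGN.

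Levels of the D-type cyclins per length were close to each other in SC and LGN. In SC, Ccnd1 stood at 29.0 ± 6.86 TPM, Ccnd3 at 25.1 ± 2.08 TPM and Ccnd2 at 22.3 ± 4.43 TPM, and in LGN Ccnd2 stood at 26.5 ± 3.50 TPM, Ccnd1 at 25.2 ± 4.75 TPM and Ccnd3 at 23.4 ± 2.04 TPM (SD, n = 3 each). In the remaining brain Ccnd2 stood at 50.9 ± 22.0 TPM, Ccnd1 at 31.3 ± 8.24 TPM and Ccnd3 at 23.2 ± 1.299 TPM (SD, n = 2). Neighbours in each of these 3 orders lay within their spread of each other. Cdkn1c had rank 3 of the 42 in both LGN and SC, at 76.7 ± 2.30 TPM and 43.2 ± 12.5 TPM (SD, n = 3 each). The pretectal library, which has no replicate, held 21.3 CPM of Mki67, 6.89 CPM of E2f1 and 34.1 CPM of Cdkn1c. Of other pathway genes, 0 of 32 replication and 4 of 44 mitosis genes were lower in SC than in the remaining brain, beside 3.75% of all genes tested. In LGN, 4 of 32 and 11 of 44 were lower, beside 5.17% of all genes tested.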

How the data were processed

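Strand-marked mRNA libraries were sequenced from 27 samples, the retinal ones single-end with 76 bases and the brain ones paired-end with 125 bases, per the labels' protocols. The deposited values are estimated counts per transcript, as eXpress gives them and not scaled between libraries. The submitters' processing notes name Trimmomatic 0.32, Bowtie2 2.2.1, eXpress 1.3.1 and GRCm38.p3; whether counting used strand is not given in the sources used here. The transcript table also holds a deposited length column, used for TPM. Date-like symbols of 27 genes were restored.

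The 88198 transcripts were summed to 30735 genes and rounded. Genes were tested with edgeR 4.0.16 (quasi-likelihood F-test, TMM, a filterByExpr count minimum of 10, Benjamini-Hochberg adjustment over all genes tested, threshold 0.05) in R 4.3.3 with limma 3.58.1. The 12 RGC libraries were fitted together for genotype and age (16673 genes), the 18 retinal libraries with SN pooled over genotype for fraction and SN age (16954 genes), and the 9 brain libraries together (15288 genes); all 42 genes were tested in each. CPM uses TMM-scaled totals, and an SE was taken from the log2 fold change and the F statistic (its size over the root of F). For some of the comparisons the fit was also run on simulated counts, drawn without an outlying library. That run does not show how the fits behave with the outlying libraries named above, and no result here rests on it. Replicate libraries had log2 CPM correlations of 0.976 to 0.991, and the depth given in the report bounds counting error only.

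Alternatives were DESeq2 1.42.0, its size factors in edgeR, unscaled library totals, no count filter, other sets of libraries in the fit, a replicate block and leaving out each library. SC and LGN libraries share numbers in their titles, and the deviations of same-numbered libraries from the group means correlated at 0.288, 0.129 and 0.317. The main test of SC against LGN was unpaired, and a fit that pairs the same-numbered libraries is given beside it.

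The members and the 14 other gene lists were chosen with earlier results of these data known. Any of the 42 could be named in any comparison, and of other lists the 4 genes with the smallest adjusted p. Lists not described in the report gave these counts in RGC against SN at P3: 5 of 8 endothelial markers higher and 1 lower, 2 of 6 tested erythroid markers higher, 2 of 5 astrocyte markers higher and 1 lower, 2 of 5 oligodendrocyte precursor markers lower, 6 of 7 amacrine and 3 of 7 photoreceptor markers lower. In SC against LGN, 4 of 8 brain progenitor markers were lower.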

Additional observations from a re-analysis of the deposited data

How the results depend on the processing

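With any 1 library left out, the count of called cell cycle genes lay at 41 for RGC against SN at P3, 0 to 38 at E15 (32 with all libraries), 4 to 14 for SN at P3 against E15 (18), 3 to 34 and 2 to 4 for Brn3b HET and Brn3b KO RGC at P3 against E15 (22 and 4), 7 to 36 for Brn3b KO against Brn3a KO (32), 0 to 1 for Brn3b HET against Brn3a HET (3), 0 to 1 for the difference of RGC against SN between ages (0), 0 to 2 for SC against LGN (1), 1 to 21 for SC against the remaining brain (4) and 2 to 28 for LGN against it (9). Where an arm was left with 1 library, that library was assumed to vary like the other groups. DESeq2 called 7 genes for Brn3b KO against HET at P3, 16 for Brn3b HET against Brn3a HET, 1 for the difference of RGC against SN between ages, 2 for SC against LGN, 7 for SC and 14 for LGN against the remaining brain. With only the groups compared in the fit, the counts were 34 for Brn3b HET against Brn3a HET, 6 for RGC against SN at E15, 3 for SC against LGN and 4 for LGN against the remaining brain. Brn3b HET against Brn3a HET had 8 calls with no count filter and 7 with all 18 retinal libraries. With HET libraries alone on the RGC side, RGC against SN at E15 had 4 calls and the difference between ages 1, as it had with no filter. The causes were not tested.

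The replicate block gave 2 calls for SC against LGN, 2 for SC and 10 for LGN against the remaining brain, and 10 for SN at P3 against E15. Retinal replicate numbers were taken as names only: deviations of same-numbered libraries correlated between -0.22 and 0.37 over 7 pairs of groups. Numbers crossed after the data were seen gave 18 calls for Brn3b HET RGC at P3 against E15 and 35 for Brn3b KO against Brn3a KO.

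Of 2475 values of single genes under alternatives, 2065 kept direction and side of the threshold, 400 kept direction only and 10 changed sign. These values cover the genes called in the main fit and some uncalled genes. Calls that other genes gained under an alternative are not in this tally. With 1 library left out, the E15 log2 fold change of Brn3b KO against HET lay between -1.30 and 0.31 for Ccnd1 and between -1.21 and 0.33 for Mki67, above 0 only without HET replicate 2. In RGC against SN, Cdkn1c at E15 lay between -0.088 and 0.178, below 0 only without HET RGC replicate 1, and Ccnd2 at P3 between -0.226 and 0.075. Ccnd2 at P3 was at 0.017 with DESeq2, at 0.017 with its size factors in edgeR and at 0.154 with the Brn3b libraries alone (chosen after the data were seen). Precision was limited by having 2 libraries per AP-positive group and 1 SN library per genotype and age.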
